A study of Mus musculus with 24 samples.

Results

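Here 10 genes of the acrosome, the secretory vesicle that covers the front of the sperm nucleus, were followed through the stages before the spermatid is formed. They were taken by symbol: Acr, Acrbp, Acrv1, Spaca1, Zpbp, Zpbp2, Spata16, Actl7a, Actl7b and Izumo1, which are 10 of the 52323 rows of each gene table. All were listed in both tables, but 6 of the 10 reached 1 FPKM (fragments per transcript length and per sequenced fragments, the usual length- and depth-scaled level) in at least 2 libraries of total RNA, and the same 6 did so in nascent RNA. These 6 are Acr, Acrbp, Zpbp, Zpbp2, Spata16 and Actl7b. The other 4, Acrv1, Spaca1, Actl7a and Izumo1, stayed below 1 FPKM in all 24 libraries.

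The libraries came from testes of wild-type NMRI mice whose spermatogenesis had been synchronised with WIN18,446 and retinoic acid, a treatment shared by every group. Each mouse received 2 mg of 5-ethynyl uridine (EU), a uridine analog that marks newly made RNA, at 24 days after birth, and cells were sorted by ploidy 3 h later. The assays were total RNA with ribosomal RNA depleted and EU-captured nascent RNA without depletion, with 12 libraries each. Spermatogonia gave 3 of them (2 animals), preleptotene spermatocytes 1, leptotene spermatocytes 4 (3 animals) and pachytene spermatocytes 4 (2 animals). The labels name 8 animals, 4 for each assay. Sorted populations are not pure, and the labels give no purity.

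The acrosome is built from Golgi-derived vesicles in round spermatids, which are haploid. It holds proteases and their inhibitors and binding proteins in a dense matrix, proteins of its membranes that later take part in contact and fusion with the egg, and it is anchored to the nucleus by an actin-containing plate, the acroplaxome. Meiotic prophase runs from leptotene, when chromosomes begin to condense and break, to pachytene, when homologous chromosomes are fully paired, and pachytene spermatocytes are known to transcribe genes whose products serve spermatids. A comparison of nascent and total RNA therefore asks at which of these stages a gene is being transcribed, and at which its RNA is held.

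Markers were read before the members. In total RNA the summed level of 10 pachytene markers was 2780 to 3436 FPKM in the pachytene libraries and 105 to 138 FPKM in 3 of the leptotene libraries, but 2339 FPKM in leptotene library 2. Nascent leptotene library 2 held 540 FPKM of them, against 36.4 to 70.2 FPKM in the other leptotene libraries. The leptotene markers of leptotene library 2 summed to 58.4 FPKM in total and 126 FPKM in nascent RNA. These sums lay above every pachytene library, at most 42.7 and 75.8 FPKM. They lay below the other leptotene libraries, at 134 to 483 and 240 to 277 FPKM. The summed spermatogonial markers of leptotene library 2 also lay between those groups in both assays. Over all tested genes this library correlated with the pachytene libraries at Spearman 0.87 to 0.90 and with the other leptotene libraries at 0.53 to 0.57 in total RNA, and at 0.75 to 0.86 against 0.59 to 0.63 in nascent RNA. Its label is leptotene, so it stays in that group, and comparisons with leptotene are given with and without it. Leptotene library 3 was about as close to spermatogonia, at Spearman 0.74 to 0.85 in total and 0.77 to 0.86 in nascent RNA, as to leptotene libraries 1 and 4, at 0.84 to 0.85 and 0.77 to 0.78. Pachytene library 3 kept more leptotene marker RNA than the other pachytene libraries, with 42.7 FPKM against at most 9.79 FPKM in total RNA and 75.8 against at most 20.4 FPKM in nascent RNA. The 12 spermatid markers, including the protamines and transition proteins that replace histones, summed to 9.55 to 14.9 FPKM in pachytene total RNA, beside 3.05 to 8.08 FPKM in leptotene and 4.50 to 10.98 FPKM in spermatogonial total RNA. Tnp1, Smcp, Lelp1 and Spem1 were listed at 0 in all 4 pachytene libraries, while Tnp2 was at 3.12 to 6.76 and Prm1 at 2.35 to 2.90 FPKM. Of the 5 spermatid markers tested, 3 (Tnp2, Prm1 and Prm2) rose from leptotene to pachytene in both assays. Over all tested genes, 22.4% in total and 15.8% in nascent RNA were called higher. The median over the 5 was 0.96 on the log2 scale in total and 0.83 in nascent RNA (limma). Of the 5, 4 in total and 2 in nascent RNA reached 1 FPKM in at least 2 of the 7 earlier libraries. Those are the libraries before pachytene other than leptotene library 2. The rest, with all 3 that rose in nascent RNA, entered the fit through libraries in which they were high, so these counts and medians are a description. In total RNA the summed spermatid marker level thus rose from leptotene to pachytene, as did the tested members, but it did not follow them in each library. Spermatogonial library 3 was at 10.98 FPKM, above pachytene library 2 at 9.55 FPKM. Leptotene library 2, at 8.08 FPKM, lay below every pachytene library. A list of 10 Sertoli cell markers summed to 133 to 185 FPKM in spermatogonial and to 2.85 to 5.34 FPKM in pachytene total RNA, so somatic RNA moved with the comparison of those stages. The part of either in the results was not tested. How reads were assigned to overlapping genes is not given in the sources used here. The annotation has Gm44597 on the same strand over 1854 bases of Acrbp, Rasip1 over 1336 bases of Izumo1, and genes on the opposite strand over parts of Acrbp, Zpbp and Actl7b, so those levels may hold reads of 2 genes.

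**Figure D1:**
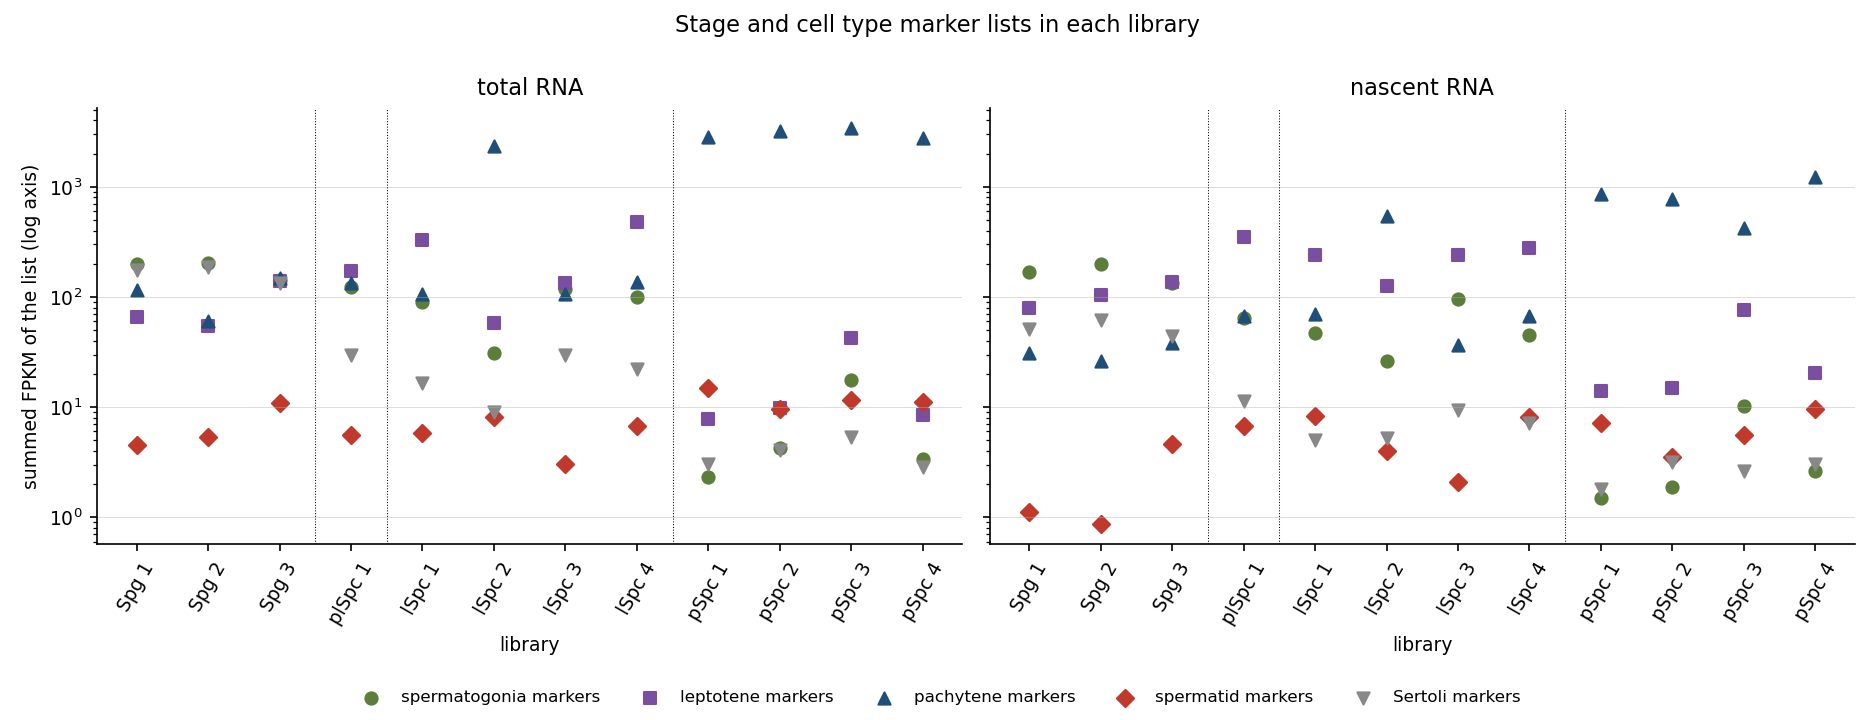
Summed FPKM (log axis) of stage and cell type marker lists in each library, total RNA on the left and nascent RNA on the right. Leptotene library 2 (lSpc 2) lies near the pachytene libraries for pachytene markers in both assays, while spermatid markers stay at or below 14.9 FPKM in every library.

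Acr encodes acrosin, the serine protease of the acrosomal matrix, and lies at chr15:89568326-89574585 on the plus strand (mm10, GENCODE M21). In total RNA it was at 1.53, 0.724 and 1.95 FPKM in the spermatogonial libraries, 1.23 in preleptotene, 0.655, 1.53 and 1.75 in leptotene libraries 1, 3 and 4, and 28.9, 47.8, 31.6 and 56.0 in the pachytene libraries. Every pachytene library lay above every earlier library, and leptotene library 2, at 23.7 FPKM, lay just under the pachytene range. Nascent Acr was at 0 to 0.34 FPKM in the 7 earlier libraries other than leptotene library 2, which held 11.5 FPKM. It was at 18.6, 16.9, 14.4 and 27.9 FPKM in pachytene.

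Acrbp encodes the protein that binds proacrosin and holds it in the matrix, and lies at chr6:125049689-125063267 on the plus strand. Its total RNA was at 0.677 to 2.44 FPKM in the 7 earlier libraries and at 3.37, 5.04, 52.7 and 4.53 FPKM in pachytene libraries 1 to 4. One pachytene library was therefore far above the other 3. Nascent Acrbp was even, at 12.2, 8.91, 9.86 and 11.3 FPKM in the 4 pachytene libraries, against 0.0865 to 0.349 FPKM in the 7 earlier ones. Leptotene library 2 held 3.08 FPKM in total and 9.19 FPKM in nascent RNA.

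Zpbp and Zpbp2 encode paralogous proteins of the acrosomal matrix named for binding the zona pellucida, the coat of the egg. Both are on chromosome 11, Zpbp at chr11:11279626-11462408 on the minus strand and Zpbp2 at chr11:98551097-98558665 on the plus strand. Zpbp was at 39.9, 32.2, 33.7 and 40.5 FPKM in pachytene total RNA and at 1.29 to 2.91 FPKM in the 7 earlier libraries. It was the one member of the 6 with nascent signal close to 1 FPKM or above in every earlier library, from 0.905 FPKM in spermatogonia to 2.67 FPKM in leptotene, against a highest value of 0.699 FPKM for the other 5. In pachytene, nascent Zpbp was at 22.4, 20.9, 10.1 and 45.8 FPKM.

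Zpbp2 was at 33.00, 12.04, 1.03 and 9.52 FPKM in pachytene total RNA and at 20.9, 14.5, 16.0 and 24.0 FPKM in pachytene nascent RNA, in libraries 1 to 4. Its value in pachytene library 3 lay inside the 0.796 to 2.39 FPKM of the 7 earlier libraries, so the groups overlapped in total but not in nascent RNA. The highest total RNA value of any library, 50.9 FPKM, was in leptotene library 2.

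Spata16 encodes a Golgi and proacrosomal vesicle protein of spermatids whose loss in human patients gives round-headed sperm without an acrosome. It has the longest gene body of the 10, 345593 bases at chr3:26637620-26983212 on the plus strand. Total RNA was at 0.544 to 1.80 FPKM in the 7 earlier libraries and at 109, 88.2, 33.6 and 87.6 FPKM in pachytene. Nascent RNA was at 0 to 0.291 FPKM and at 22.3, 16.1, 16.1 and 24.5 FPKM in the same libraries. No pachytene value overlapped the earlier ones in either assay. Leptotene library 2 held 88.8 FPKM in total RNA, within the pachytene range, and 10.01 FPKM in nascent RNA, below it.

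Actl7b and Actl7a are neighbouring genes without introns that encode testis-specific actin-related proteins. Actl7b is at chr4:56740005-56741443 on the minus strand and Actl7a at chr4:56743413-56744925 on the plus strand, head to head, with annotated starts 1970 bases apart. Actl7b was at 66.4, 77.4, 71.6 and 68.3 FPKM in pachytene total RNA and at 1.11 to 3.63 FPKM in the 7 earlier libraries. Its nascent RNA was at 15.9, 18.6, 11.3 and 24.5 FPKM in pachytene and at 0 to 0.692 FPKM earlier. Actl7a was at 0.0558, 0.162, 0.307 and 0.117 FPKM in pachytene total RNA and listed at 0 in the 4 nascent pachytene libraries. In the libraries in which Actl7b was at 66.4 FPKM or more, its neighbour was thus below 1 FPKM. The 250 bases before the RefSeq start of each (GRCm38.p6) are shown because the pair shares this interval and differs in RNA. Capitals mark matches on either strand to TGACG, the first 5 of the 8 letters of the cAMP response element, or to CACGTG, an E-box, and neither window has one.
Actl7b: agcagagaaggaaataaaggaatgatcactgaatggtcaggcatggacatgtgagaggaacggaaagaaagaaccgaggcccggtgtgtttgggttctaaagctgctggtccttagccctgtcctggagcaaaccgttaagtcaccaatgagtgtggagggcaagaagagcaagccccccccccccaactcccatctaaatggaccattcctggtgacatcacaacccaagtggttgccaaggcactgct
Actl7a: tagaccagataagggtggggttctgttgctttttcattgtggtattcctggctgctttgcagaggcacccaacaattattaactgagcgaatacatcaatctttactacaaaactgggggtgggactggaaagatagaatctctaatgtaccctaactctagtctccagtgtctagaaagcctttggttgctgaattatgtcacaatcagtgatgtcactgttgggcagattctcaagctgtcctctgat
These windows are chr4:56741426-56741675 (minus strand) and chr4:56743172-56743421 (plus strand).

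Windows of this kind matched 9 of the 10 members in the RefSeq table. The full element TGACGTCA was in the window of 1 member, Izumo1, and in 1.55% of all 32851 windows of the table. TGACG, which is also part of the full element, was in the windows of Acrbp, Zpbp2, Spaca1 and Izumo1 and in 17.8% of all windows. CACGTG was present at 2 places in Spata16, whose first bases are 71 and 45 bases before the start, in no other member, and in 6.02% of all windows. The windows of Spata16, the member with the highest mean pachytene total RNA, and of Izumo1, a member below 1 FPKM in every library, are shown with the same capitals.
Spata16: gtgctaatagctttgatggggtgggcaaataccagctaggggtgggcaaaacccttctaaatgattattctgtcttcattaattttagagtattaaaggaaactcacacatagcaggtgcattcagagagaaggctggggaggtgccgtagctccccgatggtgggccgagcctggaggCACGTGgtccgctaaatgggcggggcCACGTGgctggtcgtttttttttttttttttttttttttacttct
Izumo1: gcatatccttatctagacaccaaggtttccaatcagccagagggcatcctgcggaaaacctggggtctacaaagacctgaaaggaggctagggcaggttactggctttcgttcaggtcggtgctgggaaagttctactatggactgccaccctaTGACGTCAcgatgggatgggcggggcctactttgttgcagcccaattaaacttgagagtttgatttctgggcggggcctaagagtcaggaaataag
They are chr3:26637381-26637630 and chr7:45621561-45621810, both on the plus strand. In Izumo1 the capitals are the full element, which begins 96 bases before the start. GTTNCC, a part of the X-box that RFX factors bind, had matches in 8 of the 9 members and in 39.4% of all windows, and AACNG, the MYB core, in 7 of the 9 and in 74.2%. A match is a run of letters and not a measured binding site.

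Izumo1 encodes the sperm membrane protein that binds the egg receptor JUNO, and lies at chr7:45621811-45628823 on the plus strand. Its total RNA was at 0 to 0.0977 FPKM in pachytene and at 0.137 to 0.319 FPKM in the 7 earlier libraries, and it was listed at 0 in nascent pachytene RNA. Acrv1, which encodes the acrosomal vesicle protein SP-10, is at chr9:36693220-36698843 on the plus strand. It reached at most 0.12 FPKM in pachytene total RNA, 0.108 FPKM in pachytene nascent RNA and 0.535 FPKM in the preleptotene nascent library, its highest value. Spaca1, which encodes a protein of the inner acrosomal membrane, is at chr4:34024874-34050191 on the minus strand. It was at 0 to 0.15 FPKM in pachytene total RNA, at 0 in nascent pachytene RNA, and highest, at 0.431 FPKM, in a spermatogonial total RNA library. All of these levels are low and no fold change is given for these 4 genes. The number of reads behind 1 FPKM is unknown, so what an entry of 0 still allows cannot be given.

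**Figure D2:**
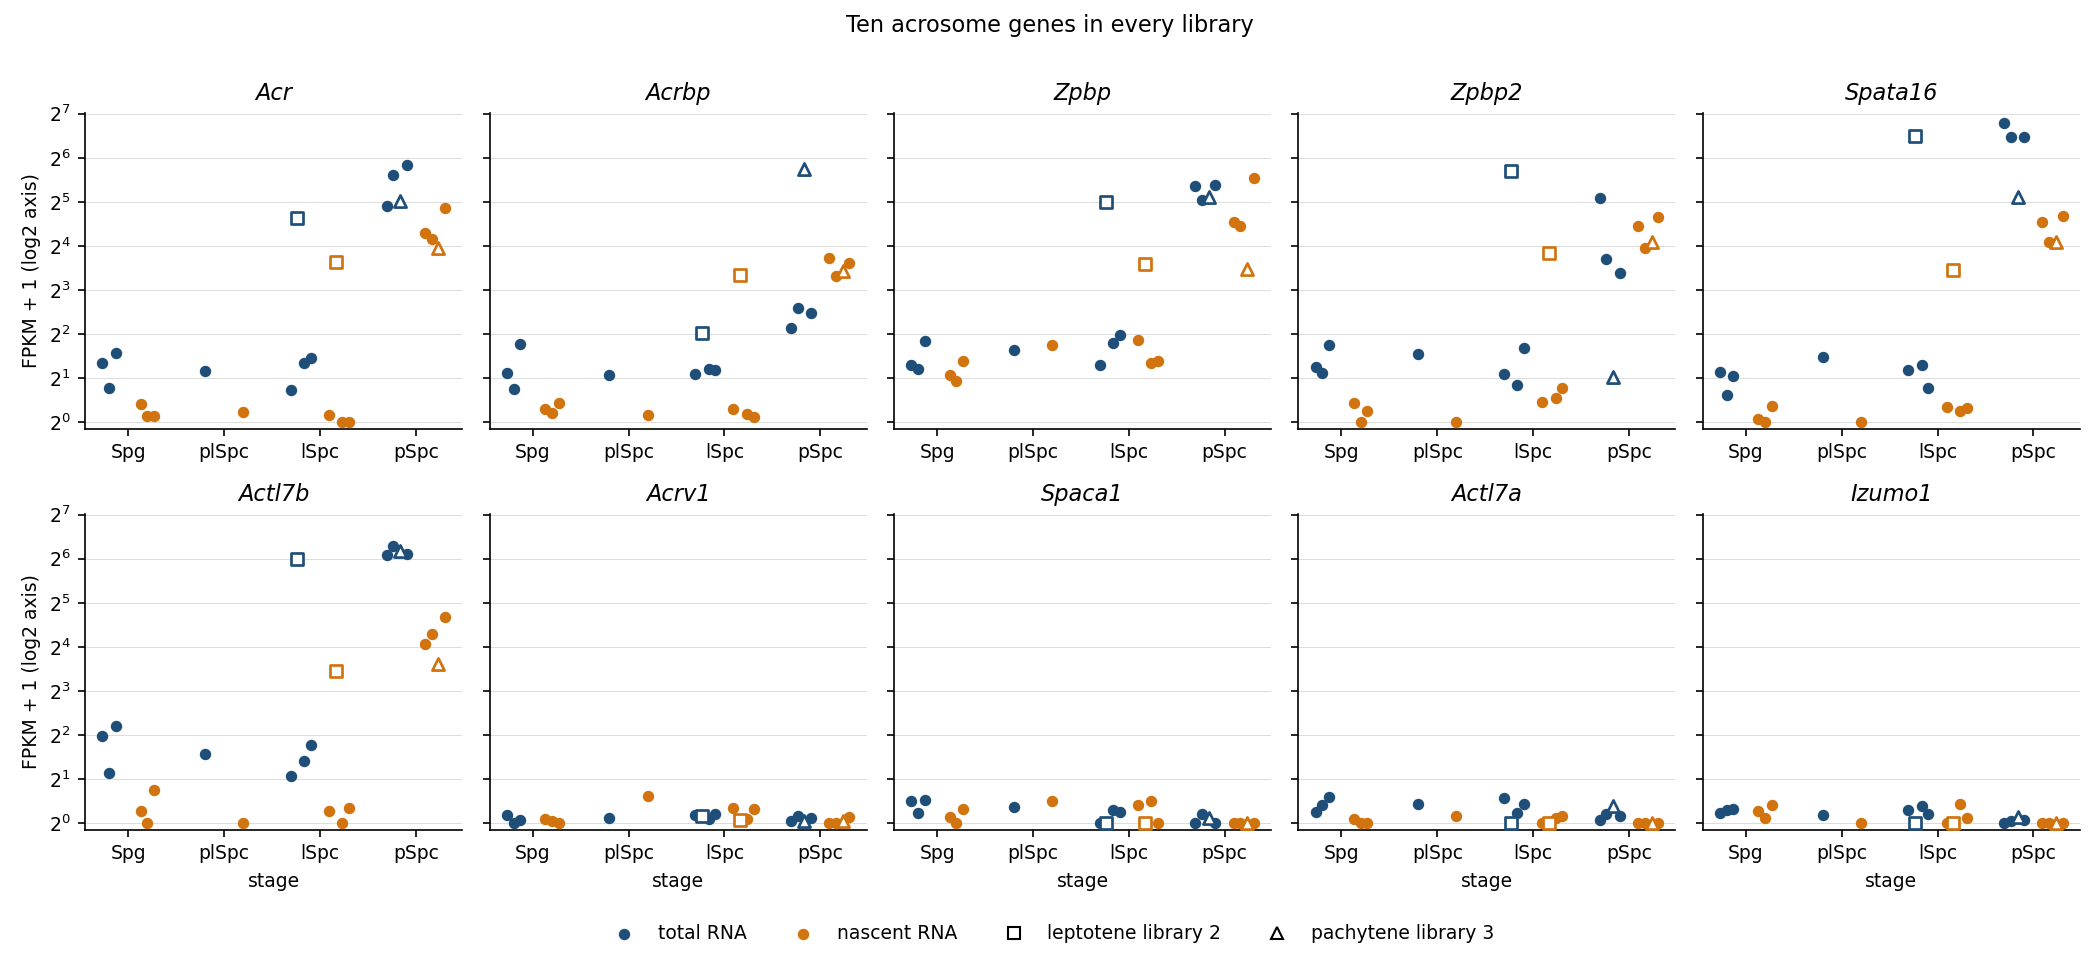
FPKM + 1 (log2 axis) of each of the 10 genes in every library by stage, blue for total and orange for nascent RNA, with leptotene library 2 as squares and pachytene library 3 as triangles. Acr, Acrbp, Zpbp, Zpbp2, Spata16 and Actl7b rise in pachytene and in leptotene library 2, while the other 4 stay below 1 FPKM.

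Leptotene against spermatogonia asks whether the RNA of any member changed at the entry into meiosis, and not whether it was transcribed at either stage. None of the 6 tested members was called in either assay (limma, Benjamini-Hochberg adjusted over all tested genes, threshold 0.05). In total RNA 0.286% of 19202 tested genes were called higher and 9.52% lower, and in nascent RNA 0.696% of 16375 higher and 9.9% lower. At an unadjusted p under 0.05 the count of members was also 0 in both assays. In nascent RNA, all of the 6 but Zpbp were at most 0.699 FPKM at these stages outside leptotene library 2. They entered the fit only through libraries in which they were high. At such levels the absence of a nascent call says little about a change in them. Log2 fold changes ran from -0.04 ± 0.45 (SE) for Acrbp to 1.003 ± 0.78 for Spata16 in total RNA, with a 95% interval of -0.76 to 2.77 for Spata16, which had 0.12 ± 0.27 without leptotene library 2. In nascent RNA they ran from 0.28 ± 0.54 for Actl7b to 0.92 ± 0.48 for Zpbp2, with an interval of -0.13 to 1.97 for Zpbp2, which had 0.35 ± 0.26 without leptotene library 2. The median over the 6 was 0.50 in total RNA, and -0.17 without leptotene library 2, beside -0.07 and -0.13 over all tested genes. In nascent RNA it was 0.52, and -0.02 without that library, beside -0.08 in both cases. Without leptotene library 3 no member was called either, and the smallest adjusted p was 0.0767, for nascent Zpbp2 (1.22 ± 0.46, limma).

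Pachytene against leptotene gave higher total RNA for 5 of the 6 tested members, where 22.4% of all tested genes were called higher. All 6 reached 1 FPKM in at least 2 of the 7 earlier total RNA libraries, so their place in this fit did not depend on pachytene. Spata16 rose by 4.24 ± 0.78 on the log2 scale of FPKM + 1 (SE, adjusted p = 0.00442 by limma), Actl7b by 3.93 ± 0.59 (adjusted p = 0.00315) and Acr by 3.52 ± 0.47 (adjusted p = 0.00312). Zpbp rose by 2.93 ± 0.44 (adjusted p = 0.00317) and Acrbp by 1.92 ± 0.45 (adjusted p = 0.0111). Zpbp2 had 1.33 ± 0.65 with an interval of -0.15 to 2.81 and did not pass (limma, adjusted p = 0.132). Without leptotene library 2 all 6 passed, where 28.9% of all tested genes were called higher, from 2.07 ± 0.44 for Acrbp and 2.10 ± 0.33 for Zpbp2 to 5.13 ± 0.27 for Spata16. Without leptotene library 1, from the same animal, library 2 alone stands for that animal and none of the 6 passed, at adjusted p of 0.188 to 0.211 for the 5 that had. With the animal as a block Acrbp no longer passed (1.33, adjusted p = 0.116 by limma) and Zpbp2 did (2.70, adjusted p = 0.00877). Without pachytene library 3 Acrbp had 1.01 ± 0.34 (adjusted p = 0.0412 by limma) and Zpbp2 passed at 2.35 ± 0.73 (adjusted p = 0.0325). Without pachytene library 1 Zpbp2 had 0.31 ± 0.85.

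In nascent RNA all 6 tested members rose from leptotene to pachytene, where 15.8% of all tested genes were called higher. Of the 6, only Zpbp reached 1 FPKM in at least 2 of the 7 earlier nascent libraries. The other 5 entered the fit through the libraries in which they were high, so their count, rises and p in this paragraph are a description. The rises were 3.68 ± 0.55 for Acr (limma, adjusted p = 0.000938), 3.53 ± 0.50 for Spata16, 3.43 ± 0.54 for Actl7b, 3.13 ± 0.48 for Zpbp2, 2.81 ± 0.49 for Acrbp and 2.69 ± 0.51 for Zpbp (limma, adjusted p = 0.00295). They were 2.97 ± 0.39 to 4.26 ± 0.26 without leptotene library 2, where 17.6% were called higher. The share called lower over all tested genes was 15.4%, and no member was. Without leptotene library 1 none passed, at adjusted p of 0.0561 to 0.11.

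**Figure D3:**
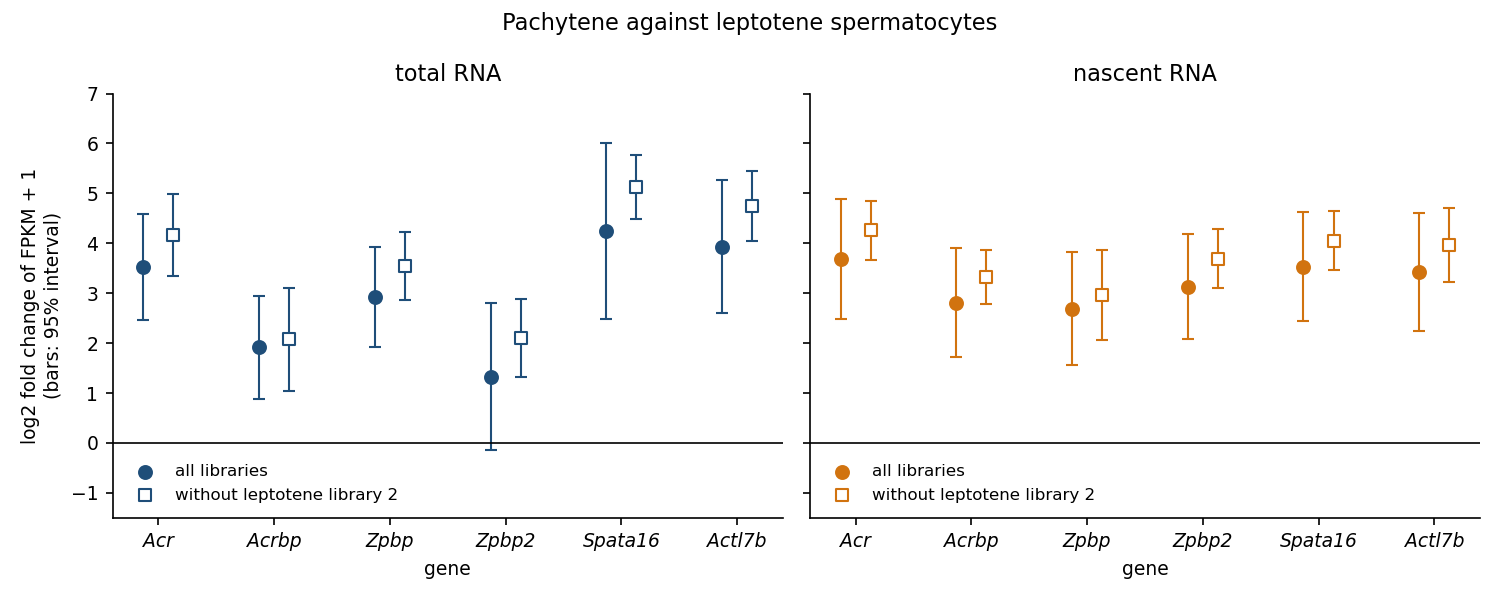
Log2 fold change of FPKM + 1 between pachytene and leptotene spermatocytes for the 6 tested genes, with 95% intervals, for total RNA (left) and nascent RNA (right). Filled circles use all libraries and open squares leave out leptotene library 2. Zpbp2 in total RNA is the one value whose interval reaches below 0.

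Against spermatogonia, 5 of the 6 were higher in pachytene total RNA, where 23.1% of all tested genes were called higher, and all 6 in nascent RNA, where 15.6% were. In nascent RNA all but Zpbp again entered the fit through libraries in which they were high, so that count and their nascent rises are a description. The comparisons share the pachytene libraries with those above. Spata16 rose by 5.25 ± 0.85 in total RNA (limma, adjusted p = 0.00156) and Acr by 4.03 ± 0.51, while Zpbp2 had 1.83 ± 0.71 (limma, adjusted p = 0.0577). Acrbp rose by 1.88 ± 0.50 (limma, adjusted p = 0.012), but had 0.97 ± 0.37 without pachytene library 3 (adjusted p = 0.0532) and 1.34 with the animal as a block (adjusted p = 0.163). Zpbp2 passed with the block (3.76, adjusted p = 0.00307 by limma) and without pachytene library 3 (2.84, adjusted p = 0.0166), and had 0.81 ± 0.93 without pachytene library 1. At the same 1.83 it also passed without leptotene library 2 or 3, which enter its comparison only through the pooled spread (limma, adjusted p = 0.00411 and 0.0278). The nascent rises ran from 3.18 ± 0.54 for Acrbp to 4.15 ± 0.54 for Spata16. In sorted bulk cells a larger share of a cell type and more RNA per cell cannot be told apart.

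The order of the members within pachytene differed between the assays. In total RNA, Spata16 stood at 79.5 ± 11.9 FPKM (SD over 2 animal means) and Actl7b at 70.9 ± 2.70, and their libraries overlapped. Acr followed at 41.1 ± 15.3 and Zpbp at 36.5 ± 0.33, also overlapping, and then Acrbp at 16.4 ± 16.4 and Zpbp2 at 13.9 ± 4.41. The order of these last 2 rested on pachytene library 3, without which Zpbp2 was at 21.9 ± 15.7 and Acrbp at 4.08 ± 1.004 FPKM. In nascent RNA 5 members lay close together, with Zpbp at 24.8 ± 12.1, Spata16 at 19.7 ± 0.751, Acr at 19.5 ± 4.18, Zpbp2 at 18.8 ± 0.58 and Actl7b at 17.6 ± 5.64 FPKM, and no neighbours among them separated beyond their libraries. Acrbp was lowest at 10.6 ± 0.672 FPKM. The tables were normalized separately, so a level in one is not on the scale of the other.

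Whether total and nascent RNA changed by different amounts from leptotene to pachytene was tested with an assay by stage term. The test takes the libraries of the 2 assays as separate animals, as labelled. Leptotene libraries 2 and 3 and pachytene library 3 stood apart in both assays, so if same-numbered libraries share cells, its SE and p do not hold as given. None of the 6 members was called, as were 0.0752% of 19955 tested genes, and no member had an unadjusted p under 0.05. The largest difference was Zpbp2, whose total RNA rose by 1.80 ± 0.86 log2 units less than its nascent RNA (-1.80, interval -3.66 to 0.06, adjusted p = 0.605 by limma). Without leptotene library 2 of both assays it was -1.60 ± 0.41 (adjusted p = 0.0534 by limma), where 3.55% of all tested genes were called. With the 9 libraries per assay that the 5S-corrected table keeps, Acrbp was called lower in total than in nascent RNA (-2.19 ± 0.40, adjusted p = 0.0247 by limma) and Spata16 higher (1.52 ± 0.32, adjusted p = 0.0396), where 3.85% of all tested genes were called. Those 9 leave out leptotene libraries 2 and 3 and pachytene library 3.

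Acrbp, Zpbp2 and Spata16 differed between pachytene libraries 1 and 3 of the same animal in total RNA. Acrbp was 15.6 times higher in library 3 than in library 1, Zpbp2 was at 0.0312 of its library 1 value and Spata16 at 0.309. The same libraries had ratios of 1.10 for Acr, 1.08 for Actl7b and 0.845 for Zpbp. Of 5808 genes with a mean of at least 5 FPKM in these libraries, 5.63% differed by more than 4-fold on the scale of FPKM + 1. The share was 1.83% of the 2127 genes whose table values have 6 decimals or fewer, as those of Acr and Actl7b do, and 7.82% of the 3681 genes with longer decimals, as those of the other 4 tested members have. Nascent pachytene library 3 had 0.806, 0.766 and 0.723 of the library 1 value for Acrbp, Zpbp2 and Spata16, and 0.77 for Acr. What sets the total RNA values apart was not tested.

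The authors' table corrected by 5S RNA multiplies each nascent library by 1 constant, from 0.441 in leptotene library 4 to 5.08 in pachytene library 2. In it the 6 members were at 21.5 to 106 in pachytene, at 0 to 1.57 in the 2 leptotene libraries and at 0 to 4.25 in spermatogonia. All 6 rose from leptotene to pachytene, by 4.57 ± 0.67 for Acrbp to 5.47 ± 0.71 for Acr (limma, adjusted p = 3.12e-08 for Acr), where 31.5% of all tested genes were called higher. The genes tested were those of the nascent filter, which all members but Zpbp passed only through libraries in which they were high. The count and the p of Acr are therefore a description, and limma shares the spread behind that p across genes. The median over all tested genes in this comparison was 0.91 there and -0.23 in the FPKM of the same 9 libraries, a shift of 1.14. The FPKM rises of the 6 in those libraries were 3.14 ± 0.32 for Zpbp to 4.32 ± 0.21 for Acr. Relative to the median of all genes, Acr rose by 4.56 in the corrected table and 4.55 in FPKM, and Zpbp by 3.98 and 3.37.

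Other acrosome genes were read from lists. Of 24 further genes of the acrosomal matrix, membranes and enzymes, 9 passed the filter in total RNA, and 8 of them rose and none fell from leptotene to pachytene (median 2.68, beside -0.07 over all tested genes), where 22.4% of all tested genes were called higher and 17.7% lower. Without leptotene library 2 the counts were the same and the median was 3.31. In nascent RNA 7 passed and 7 rose (median 2.87 beside -0.27, and 3.42 without that library), where 15.8% were called higher. Of these genes, 5 of the 9 and 1 of the 7 reached 1 FPKM in at least 2 of the 7 earlier libraries, and the rest entered the fit only through libraries in which they were high, so the counts and medians are a description. The largest rises in total RNA were those of Spink2, an inhibitor of acrosomal proteases, by 4.62 ± 0.36, Spesp1, a protein of the equatorial segment, by 4.09 ± 0.57, Pkdrej by 3.24 ± 0.60 and Pcsk4, a proprotein convertase, by 2.75 ± 0.55 (limma, adjusted p = 0.00312, 0.00314, 0.00463 and 0.00606). Pkdrej was among the genes that entered the fit only through libraries in which they were high, so its rise and p are a description. Of the genes that were not tested, chosen after their values were seen, Spam1, the sperm hyaluronidase, and Zan, zonadhesin, were at most 0.0695 and 0.0397 FPKM in any total RNA library.

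Of 11 listed genes of sperm-egg fusion, 9 were in the tables and 3 passed the filter. Izumo4 rose by 1.56 ± 0.35 and Izumo3 by 1.20 ± 0.21 in total RNA (limma, adjusted p = 0.00936 and 0.00375), where 22.4% of all tested genes were called higher. Izumo3 did not reach 1 FPKM in at least 2 of the 7 earlier libraries and entered the fit only through libraries in which it was high. Its rise, and the median of 1.20, or 1.34 without leptotene library 2, are therefore a description. Of 20 genes of acrosome biogenesis, all of which were tested in total RNA, 6 rose and 3 fell (median 0.27), beside 22.4% and 17.7% of all tested genes. Without leptotene library 2, 8 rose and 3 fell (median 0.17), beside 28.9% and 24.6%. Rimbp3 rose by 4.20 ± 0.75, Dpy19l2, a nuclear envelope protein that anchors the acrosome, by 4.16 ± 0.63 and Gba2 by 1.90 ± 0.38, while Tbc1d20 fell by 2.74 ± 0.73 (limma, adjusted p = 0.00411, 0.00317, 0.00624 and 0.0178). In nascent RNA 3 of 19 rose and none fell, beside 15.8% and 15.4% of all tested genes, but without leptotene library 2, 4 rose and 4 fell, beside 17.6% and 21.9%. Of the biogenesis genes, 19 of 20 in total and 18 of 19 in nascent RNA reached 1 FPKM in at least 2 of the 7 earlier libraries. The rest entered the fit only through pachytene libraries or leptotene library 2.

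Of 12 genes of the perinuclear theca and acroplaxome, 3 passed the filter. Actl9, an actin-related protein like Actl7a and Actl7b, rose by 4.22 ± 0.72, while Wbp2nl fell by 2.34 ± 0.36 and Myo5a by 1.37 ± 0.37 (limma, adjusted p = 0.0037, 0.00319 and 0.0189). Of all tested genes 22.4% were called higher and 17.7% lower. The median over the 3 was -1.37, and -1.65 without leptotene library 2. Of 14 transcription regulators of germ cells, 13 were tested in total RNA, and 8 rose and 2 fell (median 1.81), beside 22.4% and 17.7% of all tested genes. In nascent RNA 7 of 13 rose and 2 fell, beside 15.8% and 15.4%. Without leptotene library 2 these were 9 and 3 (median 2.44) in total RNA, beside 28.9% and 24.6%, and 7 and 2 in nascent RNA, beside 17.6% and 21.9%. Of the 13, 12 in total and 11 in nascent RNA reached 1 FPKM in at least 2 of the 7 earlier libraries. The rest entered the fit only through libraries in which they were high. Gtf2a1l, a germ cell form of a general transcription factor, rose by 3.98 ± 0.68, Tcfl5, a basic helix-loop-helix factor, by 2.82 ± 0.49 and Tbpl1, a relative of the TATA-binding protein, by 2.63 ± 0.43, while Taf7l fell by 4.70 ± 0.54 (limma, adjusted p = 0.00372, 0.00394, 0.00347 and 0.00312).

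**Figure D4:**
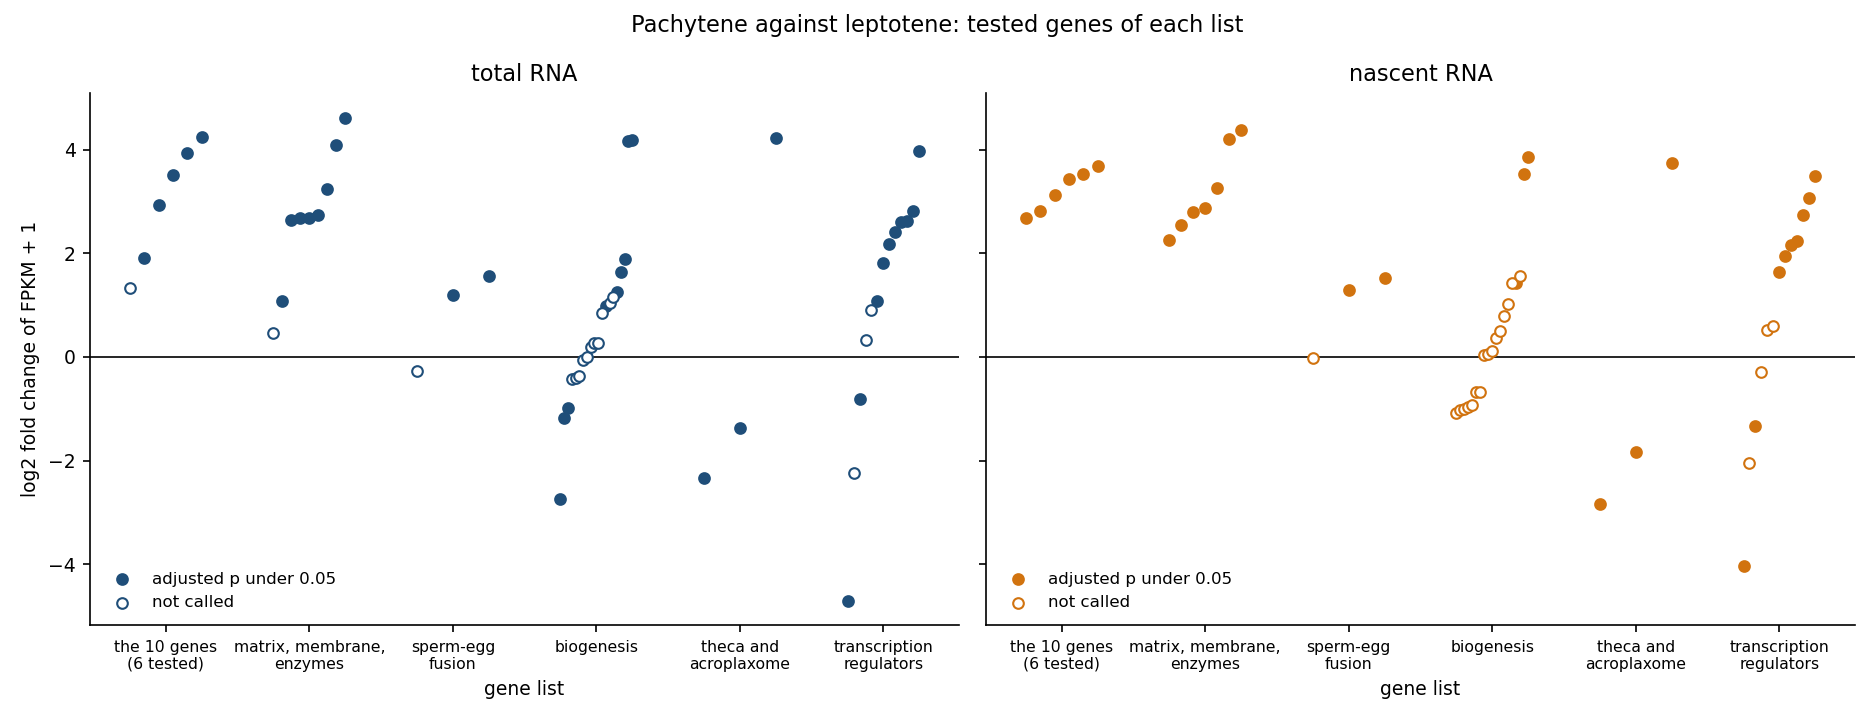
Log2 fold change of FPKM + 1 from leptotene to pachytene for each tested gene of the 10 acrosome genes and of 5 further lists, total RNA on the left and nascent RNA on the right, with filled points for adjusted p under 0.05. With all libraries, the matrix, membrane and enzyme list holds no called fall in either assay, while biogenesis, theca and regulator genes lie on both sides of 0 in total RNA. Of the matrix list, 5 of 9 genes in total and 1 of 7 in nascent RNA reached 1 FPKM in at least 2 of the 7 earlier libraries. The rest are shown only through libraries in which they were high and could hardly fall, so this contrast is a description.

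The mean pattern of the 6 members over the 12 total RNA libraries was followed most closely, among 5352 genes with a mean of at least 5 FPKM, by Ankrd36, Dnah7c, Gykl1, Hdgfl1 and Dnali1, with Pearson r of 0.999 for each. The libraries form a high cluster of the pachytene libraries with leptotene library 2 and a low cluster of the rest, so r mainly reads that split, and 814 of the genes had r of 0.95 or more. Against the mean of the other 5, r was 0.996 for Actl7b, 0.993 for Zpbp, 0.98 for Acr and 0.975 for Spata16, but 0.667 for Zpbp2 and 0.589 for Acrbp.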

How the data were processed

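The authors deposited 1 table of FPKM per gene for each assay and 1 table of nascent signal per gene corrected by 5S RNA, which is the nascent FPKM of 9 libraries times 1 constant per library. Per the submitters' processing notes, STAR 2.5.2a and StringTie were used on mm10, and the libraries were strand-directional with ERCC spike-ins, per the labels' protocols. Values of log2(FPKM + 1) were averaged over libraries of the same animal and stage and fitted with limma 3.58.1 (R 4.3.3) over all stages, with a mean-variance trend and Benjamini-Hochberg adjustment over genes reaching 1 FPKM in 2 or more libraries, leaving out the 92 spike-in rows. Fold changes on this scale understate changes of low genes. The 5S-corrected table was first multiplied by 1 number so that its mean sum matched that of the FPKM. The fit was tested on simulated data for pachytene against leptotene in total RNA. It called 5.97%, 52.2% and 89.4% of genes given a log2 change of 1, 2 and 4, and 0.0316% of the others. Changes of 1 were thus mostly missed.

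The 10 genes, the lists and the tests were chosen with earlier results of these data known. All 10 genes are reported. From each list the up to 4 called genes with the largest change in pachytene against leptotene total RNA are named. The genes most like the members in pattern are the 5 with the highest Pearson r among those with a mean of at least 5 FPKM, leaving out predicted genes and merged names. Spam1 and Zan were named after their values were seen. FPKM summed to 273338 to 442376 (total RNA) or 341597 to 807911 (nascent RNA) per library, and genes at 1 FPKM or more numbered 11988 to 14861 or 8357 to 12332. Whole reads were not recovered, since 31% to 50.6% of low values lay within 0.05 of a multiple of the best step, so depth is unknown. P-values cover the spread over 2 or 3 animals per stage. The animal of each library is taken from its label, and mean deviations of the same animal at 2 stages correlated at 0.0155 to 0.0839 in total and -0.16 to 0.0539 in nascent RNA (3 pairs each). Positions are from GENCODE M21. Overlapping genes can share reads with Acrbp, Zpbp, Actl7b and Izumo1.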

Additional observations from a re-analysis of the deposited data

Results flagged for a closer look

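In the groups of 4 leptotene libraries, library 2 stood above the other 3 by a gap that passed Dixon's 95% limit for each of the 6 members that reached 1 FPKM and in both assays. Its values were 23.7 FPKM for Acr, 3.08 for Acrbp, 30.7 for Zpbp, 50.9 for Zpbp2, 88.8 for Spata16 and 62.3 for Actl7b in total RNA. In nascent RNA they were 11.5, 9.19, 11.004, 13.2, 10.01 and 9.94 FPKM in the same order. The 2 libraries carry the same number in the 2 assays but come from different animals by their labels.

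Among pachytene libraries the same limit was passed by Acrbp in total RNA, at 52.7 FPKM in library 3. In all, 13 values passed it in 40 groups of 4 libraries, of which 37 had a range above 0. Leptotene library 2 gave 12 of the 13. Chance gives about 1 in 20 for a single group, but these groups share their libraries, so the count cannot be compared with that rate.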

How the results depend on the processing

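Each of the calls of pachytene against leptotene and against spermatogonia kept its direction under all alternatives run, and the calls that were lost or gained are those named for Acrbp, Zpbp2 and the interaction, with the loss of the calls against leptotene when leptotene library 1 was left out. Leaving out 1 library at a time gave 0 to 6 members higher in pachytene than in leptotene in total RNA and 0 to 6 in nascent RNA, beside 5 and 6. Genes called by limma then ranged over 9 to 10269 beside 7710 in total and 1440 to 6473 beside 5104 in nascent RNA. They ranged over 1031 to 2903 beside 1883 and 1305 to 4139 beside 1735 when leptotene was set against spermatogonia, over 5872 to 10982 beside 10143 and 4679 to 7797 beside 7131 when pachytene was, and over 3 to 609 beside 15 for the interaction. The lowest counts against leptotene came without leptotene library 1, and the highest interaction count without total RNA leptotene library 2.

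With the animal as a replicate block the counts were 4400 and 6079 for pachytene against leptotene and spermatogonia in total RNA, in nascent RNA 3269 (leptotene against spermatogonia) and 3219 (pachytene against leptotene), and 1 for the interaction. The block changed no member's call beyond those given for Acrbp and Zpbp2. With each library as its own sample, leptotene against spermatogonia gave 3407 in total and 2966 in nascent RNA and the interaction 28. The interaction gave 5 with a pseudocount of 0.1, 218 with no filter on low values, 9 after rescaling without spike-in rows and 709 without leptotene library 2 of both assays. With 9 libraries, an alternative added after seeing the data for total RNA as was the preceding one, leptotene against spermatogonia gave 4872 and the interaction 769, with 1 member higher and 1 lower, and Zpbp2 passed against leptotene (2.93) and spermatogonia (2.84). The nascent FPKM of 9 libraries gave 5841 genes between leptotene and spermatogonia and 8360 between pachytene and leptotene. The 5S-corrected table gave 4901 of the former. In pachytene against leptotene that table called 5149 genes higher and 360 lower, beside 2590 and 2514.

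Signs turned only in values that were not called with all libraries. For leptotene against spermatogonia in total RNA these were, with 9 libraries, Acr (-0.22), Zpbp2 (-0.090) and Actl7b (-0.46), and Acrbp as 0.16 with each library its own sample and 0.017 with the block. In nascent RNA they were, in the 5S-corrected table, Acr (-0.39), Acrbp (-0.41), Zpbp (-0.63), Zpbp2 (-0.092), Spata16 (-0.051) and Actl7b (-0.39), and in the FPKM of 9 libraries Acr (-0.13), Acrbp (-0.13) and Actl7b (-0.15). In the interaction they were Zpbp with the block (-0.24), Spata16 (-0.16) and Actl7b (-1.02) with a pseudocount of 0.1, and Actl7b after rescaling (-0.19). Leaving out 1 library gave, for leptotene against spermatogonia in total RNA, Acr -0.14 to 1.16, Acrbp -0.19 to 0.39, Zpbp2 -0.27 to 1.26 and Actl7b -0.47 to 1.17, and in nascent RNA Acr -0.16 to 0.9999, Acrbp -0.14 to 0.88 and Actl7b -0.25 to 0.82. For the interaction it gave Acr -0.81 to 0.49, Acrbp -1.80 to 0.0097, Zpbp -0.38 to 0.85, Spata16 -0.17 to 1.60 and Actl7b -0.32 to 1.31. The causes were not tested. Arms of 2 animals, or 1 when an animal is left out, limit every test, and a lone animal is assumed to vary like the others.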
